A study of Homo sapiens with 9 samples.

Results

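The 10 genes described here encode proteins that are bound by receptors of natural killer (NK) cells, and their RNA was followed in SMS-KCNR cells, a line established from a human neuroblastoma. They were chosen by name, with earlier results of these data known: ULBP1, ULBP2, ULBP3, MICA, MICB, RAET1E, RAET1L, NCR3LG1, PVR and NECTIN2. All 10 were found among the 14884 genes with a named probeset, through 16 of the 53617 probesets on the arrays. MICB had 7 probesets and each of the other 9 genes had 1. RNA was measured on 9 one-channel arrays after 30 hours in 3 groups of 3 samples, in one cell line. The simvastatin plus mevalonate group received the statin at 5 µM together with mevalonate at 2 mM, the simvastatin group received the statin alone at the same dose, and the DMSO group received the solvent. Simvastatin inhibits HMG-CoA reductase, the enzyme that makes mevalonate, and added mevalonate restores the product of that step. The study's design calls the samples independent without naming separate cultures, and the p-values measure their spread, which may be partly technical.

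NK cells weigh inhibitory signals, mainly from MHC class I molecules, against activating signals from ligands on the target cell. NKG2D, an activating receptor, binds MICA and MICB and the ULBP/RAET1 family, proteins that resemble MHC class I and appear on stressed, infected or transformed cells. NCR3LG1 encodes B7-H6, a ligand of the activating receptor NKp30 that is found mainly on tumour cells. PVR (CD155) and NECTIN2 (CD112) are adhesion proteins that activate NK cells through DNAM-1 and restrain them through TIGIT. In human cells the transcription factor ATF4 is known to drive ULBP1. Neuroblastoma cells typically carry little MHC class I. The arrays measured RNA, and neither surface protein nor killing by NK cells was measured.

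Of the 10 genes, 7 lie on chromosome 6. MICA and MICB are in the MHC region, and the ULBP/RAET1 genes stand in a separate cluster on the same chromosome. NCR3LG1 lies on chromosome 11, and PVR and NECTIN2 lie on chromosome 19. ULBP2 is the measured neighbour of ULBP1 on one side. The windows below are the 250 bases before the RefSeq start (GRCh38.p14) of the 3 genes that changed and of ULBP2, which did not pass the test. They are shown because a family member that rose and its neighbour can then be compared letter by letter. Capitals mark matches, on either strand, to TGACG, the core of the cyclic AMP response element, and to GGGCGG, the GC box.
ULBP1 (chr6:149963693-149963942, strand +): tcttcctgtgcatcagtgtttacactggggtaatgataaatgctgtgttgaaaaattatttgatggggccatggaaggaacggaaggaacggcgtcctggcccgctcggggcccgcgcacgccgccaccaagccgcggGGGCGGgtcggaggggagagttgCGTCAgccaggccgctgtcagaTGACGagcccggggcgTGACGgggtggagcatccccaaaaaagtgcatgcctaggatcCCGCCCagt
ULBP2 (chr6:149941764-149942013, strand +): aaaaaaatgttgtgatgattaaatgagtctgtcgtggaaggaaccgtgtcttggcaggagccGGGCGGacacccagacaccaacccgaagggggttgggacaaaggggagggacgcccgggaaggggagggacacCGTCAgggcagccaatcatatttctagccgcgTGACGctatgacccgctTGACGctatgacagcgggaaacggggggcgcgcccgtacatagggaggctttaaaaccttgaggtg
NCR3LG1 (chr11:17351550-17351799, strand +): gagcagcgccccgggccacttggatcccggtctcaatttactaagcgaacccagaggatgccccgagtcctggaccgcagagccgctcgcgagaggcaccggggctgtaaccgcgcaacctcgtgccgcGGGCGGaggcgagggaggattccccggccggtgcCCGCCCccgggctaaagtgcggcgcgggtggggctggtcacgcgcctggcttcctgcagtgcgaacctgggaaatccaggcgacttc
PVR (chr19:44643660-44643909, strand +): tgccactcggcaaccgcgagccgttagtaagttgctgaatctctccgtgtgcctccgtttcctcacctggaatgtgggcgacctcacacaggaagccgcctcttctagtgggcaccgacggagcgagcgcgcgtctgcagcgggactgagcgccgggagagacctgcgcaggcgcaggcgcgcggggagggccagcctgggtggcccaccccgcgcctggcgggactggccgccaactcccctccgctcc

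The windows of ULBP1 and ULBP2 held 3 matches to TGACG each, in ULBP1 starting 89, 67 and 51 bases and in ULBP2 starting 115, 83 and 66 bases before the start. At least 3 matches were present in 1.01% of the 35093 windows of all genes, and at least 1 in 21.2%. The aligned windows of ULBP1 and ULBP2 were 40.6% identical. Other pairs within the family ran from 39.8% (ULBP1 and RAET1L) to 50.6% (RAET1G and ULBP2). Unrelated windows were not aligned, so these values have no baseline. No window of the 10 genes matched TGATGNAA, the composite site bound by ATF4 with its partners (3.15% of all windows), TGACGTCA, the full cyclic AMP response element (1.65%), TTTCGCGC or TTTGGCGC (E2F, 0.969%), or the sterol regulatory element (0.125%), the NF-kB site (0.527%) or the heat shock element (0.442%). The GC box was present in the windows of ULBP1, ULBP2, ULBP3, NCR3LG1, MICA, MICB and NECTIN2 and in 42.6% of all windows, and the PVR window held neither marked motif. The 10 genes had 12 windows, because RAET1E had several starts. TGANTCA, the AP-1 site, was matched in the RAET1L window and in just 1 of the RAET1E windows (6.57% of all windows). These matches describe letters in short windows, and the same TGACG count stood before a gene that rose and one that did not pass the test.

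The authors deposited log2 values, so a difference of 1 is a doubling, and values of different probesets are not amounts that can be ranked against each other. Without detection calls, levels were set beside 23 measured genes restricted to other organs, such as ALB and APOB, as a rough guide to the value a silent gene has. Their group means lay between 2.96 and 6.56 with simvastatin and between 3.12 and 6.52 with DMSO. NCR3LG1 and PVR were above all 23 in each of the 3 groups. For NCR3LG1 the margin with DMSO was small, with a mean of 6.59 against 6.52 for GAST, the highest of the 23. ULBP1 was above 12 of the 23 with simvastatin plus mevalonate, above 20 with simvastatin and above 8 with DMSO. RAET1L was below all 23 in each group, and the other 6 ligand genes lay inside their range. ULBP1 was thus inside that range in each group. Among silent-level values a small change could go undetected, which concerns ULBP1 and the 7 genes not above that range. Of the genes called changed below, FGL1, ICAM2, ATF3, CHEK2, ERAP1, MIR889, TRIM66, NUCB2 and CEACAM19 also had means inside that range in each group. The sizes of their changes carry the same uncertainty. The cell type was checked as well. The 13 measured markers of sympathetic neuroblasts, among them PHOX2A, HAND2, TH and DBH, all had group means above 7.8, while the 16 measured markers of NK cells and other leukocytes had summed log2 values of 82.3 to 83.3 with simvastatin plus mevalonate, 82.8 to 83.2 with simvastatin and 81.6 to 83.2 with DMSO. The 3 ranges overlapped, and 7, 7 and 6 of the 16 stood above 5.19, the median of all deposited values, in these groups.

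**Figure D1:**
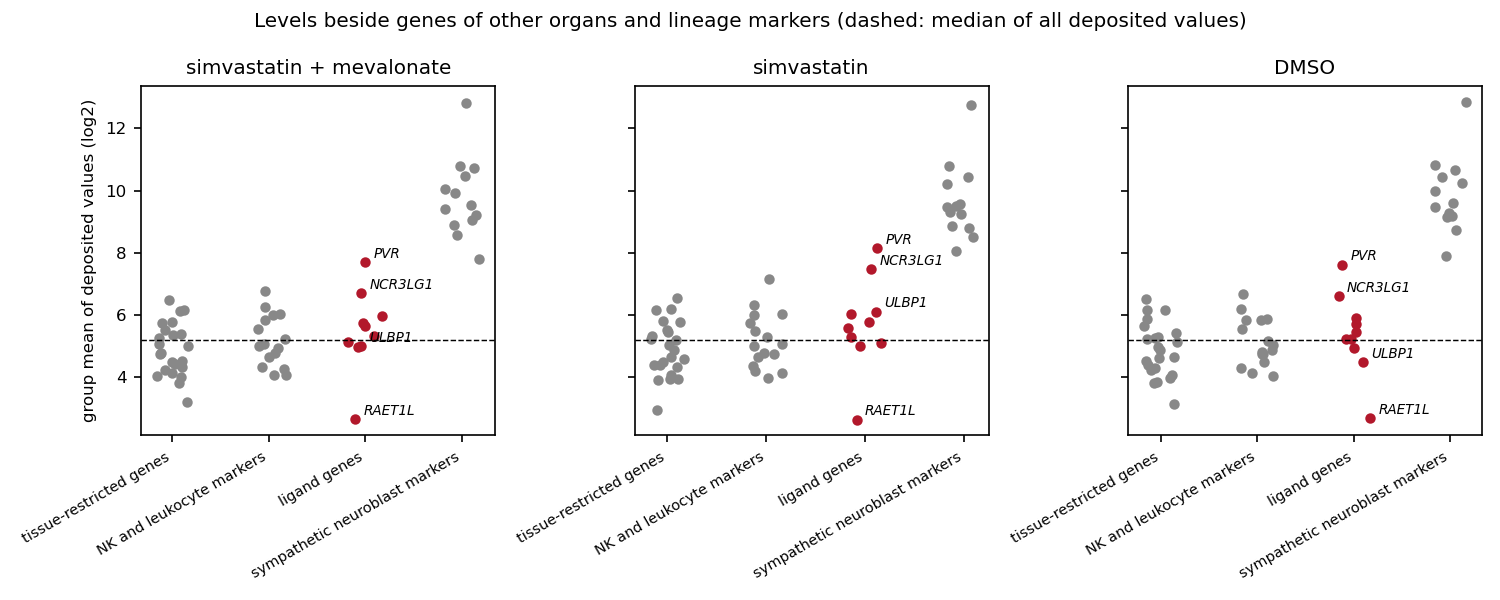
Group means of the deposited log2 values for 4 sets of genes with simvastatin plus mevalonate, simvastatin and DMSO. Each point is 1 gene, ligand genes are red, and the dashed line is the median of all deposited values (5.19). NCR3LG1 and PVR lie above the genes of other organs in each panel, and ULBP1 does so over 20 of 23 with simvastatin and over 8 of 23 with DMSO.

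To determine which ligand genes responded to the statin, simvastatin was compared with DMSO. ULBP1, NCR3LG1 and PVR rose, 1 ligand gene for each of the receptors NKG2D, NKp30 and DNAM-1, and none of the 10 fell. Of the 10 genes 3 (30.0%) were past an adjusted p of 0.05 in limma, against 13.4% of all 14884 genes in either direction, 5.98% upward and 7.38% downward. The 10 genes were chosen with earlier results of these data known, so the higher share is a description and was not tested. The groups did not overlap for 4 of the 10, against 28.6% of all genes. The median log2 change of the 10 genes was 0.09, and that of all genes 0.01. By size of rise NCR3LG1 was at rank 27 of 14884 and PVR at rank 198. ULBP1 was at rank 3 by its deposited values, a place that rests on simvastatin and DMSO means inside the range of the genes of other organs.

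ULBP1, a ligand of NKG2D held in the membrane by a lipid anchor, had values of 6.08, 6.12 and 6.12 with simvastatin, against 4.97, 4.15 and 4.33 with DMSO. The simvastatin arrays were tightly grouped and above every DMSO array, and DMSO replicate 1 was the highest of its group. The means were 6.11 ± 0.02 with simvastatin and 4.48 ± 0.43 with DMSO (SD, n = 3 each), a 3.08-fold difference (log2 change 1.62 ± 0.24 SE, adjusted p = 0.00242, limma). With DMSO all 3 arrays lay below the median of all deposited values, so the fold carries the uncertainty of a dim baseline.

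NCR3LG1 had values of 7.51, 7.49 and 7.41 with simvastatin, against 6.53, 6.62 and 6.63 with DMSO. The groups were separated by many times their spread. The means were 7.47 ± 0.05 with simvastatin and 6.59 ± 0.05 with DMSO (SD, n = 3 each), a 1.83-fold difference (log2 change 0.87 ± 0.04 SE, adjusted p = 1.72e-05, limma). Of the 3 rises this had the smallest standard error.

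PVR had values of 8.29, 8.08 and 8.06 with simvastatin, against 7.61, 7.59 and 7.66 with DMSO. Replicate 1 of simvastatin was the highest, and the other two were still clear of every DMSO array. The means were 8.14 ± 0.13 with simvastatin and 7.62 ± 0.04 with DMSO (SD, n = 3 each), a 1.44-fold difference (log2 change 0.52 ± 0.07 SE, adjusted p = 0.00172, limma). NECTIN2, its relative and the second ligand of DNAM-1 in the set, had values of 4.89, 5.14 and 4.94 with simvastatin, against 5.21, 5.00 and 4.55 with DMSO. These groups overlapped, with a log2 change of 0.07 and a 95% interval of -0.27 to 0.41 (adjusted p = 0.819).

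The remaining NKG2D ligand genes did not pass the test. ULBP2 had values of 5.12, 5.67 and 5.12 with simvastatin, against 5.26, 5.21 and 5.25 with DMSO, with 1 simvastatin array above and the other two below the DMSO arrays (log2 change 0.06, 95% interval -0.37 to 0.50). ULBP3 had 6.09, 6.15 and 5.84 with simvastatin, against 5.75, 6.01 and 5.96 with DMSO (0.12, interval -0.11 to 0.35). In both genes the groups overlapped, and their difference from ULBP1 was not tested. RAET1E, which encodes a family member with a transmembrane segment, had 4.99, 5.05 and 5.22 with simvastatin, against 5.09, 5.48 and 5.10 with DMSO (-0.14, interval -0.39 to 0.11). RAET1L, a further lipid-anchored member, had 2.39, 2.84 and 2.67 with simvastatin, against 2.69, 2.67 and 2.67 with DMSO (-0.04, interval -0.50 to 0.41). At this level RAET1L says little in either direction. Members of this family have similar sequences, so that probes of 1 gene can capture RNA of another, and this was not tested.

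MICA and MICB, the NKG2D ligands of the MHC region, also did not pass. MICA had 5.58, 5.58 and 5.63 with simvastatin, against 5.56, 5.46 and 5.35 with DMSO. The groups did not overlap, but the difference was small (log2 change 0.13, interval -0.02 to 0.29, adjusted p = 0.266). MICB, by its brightest probeset, had 5.67, 5.82 and 5.80 with simvastatin, against 5.77, 5.77 and 5.56 with DMSO (0.06, interval -0.10 to 0.22, adjusted p = 0.638). Its 7 probesets ranged from 5.35 to 5.88 with simvastatin and from 5.18 to 5.77 with DMSO, and 2 of them gave identical values on all 9 arrays. Over the 7 probesets and the 3 comparisons the log2 changes ran from -0.06 to 0.09, and the smallest adjusted p was 0.329.

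**Figure D2:**
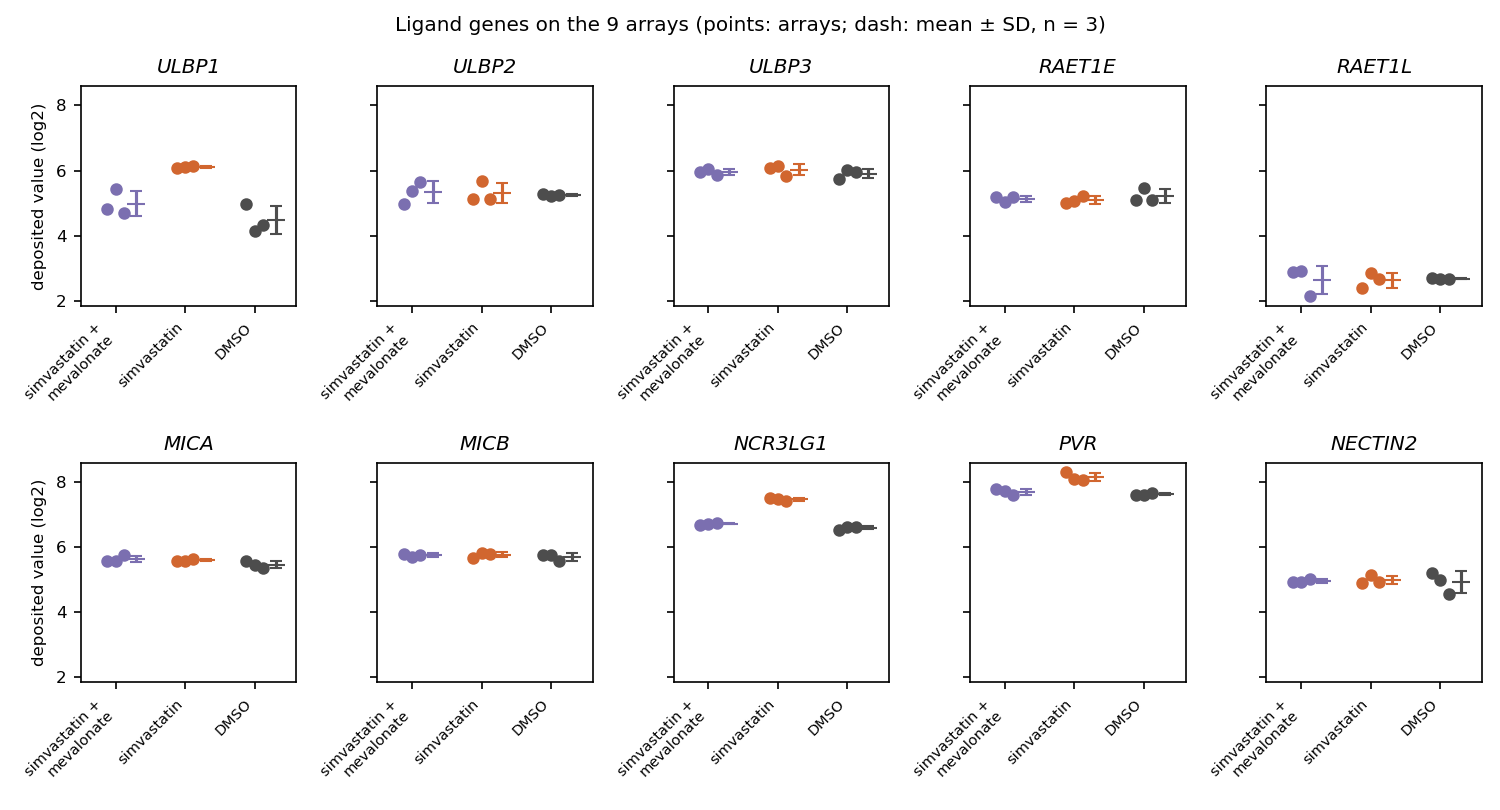
Deposited log2 values of the 10 ligand genes on the 9 arrays, with simvastatin plus mevalonate, simvastatin and DMSO from left to right. Points are arrays, and the dash with bars is the mean ± SD of 3 arrays. ULBP1, NCR3LG1 and PVR are higher on the 3 simvastatin arrays than on any other array, by their values above.

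Simvastatin plus mevalonate was then compared with simvastatin alone, to see which genes differed when mevalonate was added to the statin. No group received mevalonate alone, so an effect of mevalonate by itself cannot be told apart from a reversal of the statin's effect. The same 3 genes, ULBP1, NCR3LG1 and PVR, fell and none rose. This was 3 of 10 (30.0%), against 11.0% of all genes in either direction, 5.31% upward and 5.72% downward. This share too is a description, since the genes were chosen with earlier results known. The groups did not overlap for 3 of the 10, against 27.3% of all genes. The median log2 change of the 10 genes was -0.02 and that of all genes 0.00. The simvastatin arrays enter this comparison and the previous one, so the 2 sets of values share their chance deviations.

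NCR3LG1 had 6.69, 6.72 and 6.72 with simvastatin plus mevalonate, against 7.51, 7.49 and 7.41 with simvastatin. It was 1.69-fold lower (log2 change -0.76 ± 0.04 SE, adjusted p = 3.31e-05, limma). PVR had 7.77, 7.71 and 7.61 with simvastatin plus mevalonate, against 8.29, 8.08 and 8.06 with simvastatin, and was 1.37-fold lower (-0.45 ± 0.07 SE, adjusted p = 0.00450). Neither pair of groups overlapped.

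ULBP1 had 4.83, 5.43 and 4.70 with simvastatin plus mevalonate, against 6.08, 6.12 and 6.12 with simvastatin. Replicate 2 with mevalonate stood above the other two and still below every simvastatin array. The means were 4.99 ± 0.39 with simvastatin plus mevalonate and 6.11 ± 0.02 with simvastatin (SD, n = 3 each), a 2.18-fold difference downward (log2 change -1.12 ± 0.24 SE, adjusted p = 0.0176). This call was lost without simvastatin replicate 2 (adjusted p = 0.0535) or 3 (0.0528) and without simvastatin plus mevalonate replicate 1 (0.0665) or 3 (0.0668), while the log2 change over these and the other alternatives stayed between -1.35 and -0.98.

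The other 7 ligand genes had log2 changes between -0.07 and 0.04 with mevalonate. ULBP2 had 4.97, 5.38 and 5.65 with simvastatin plus mevalonate, against 5.12, 5.67 and 5.12 with simvastatin. ULBP3 had 5.96, 6.05 and 5.88 with simvastatin plus mevalonate, against 6.09, 6.15 and 5.84 with simvastatin. In both genes the groups overlapped. MICA had 5.58, 5.58 and 5.75 with simvastatin plus mevalonate, against 5.58, 5.58 and 5.63 with simvastatin, and MICB had 5.79, 5.70 and 5.77, against 5.67, 5.82 and 5.80. The transmembrane family member RAET1E had 5.17, 5.03 and 5.17 with simvastatin plus mevalonate, against 4.99, 5.05 and 5.22 with simvastatin. RAET1L had 2.87, 2.93 and 2.15 with simvastatin plus mevalonate, against 2.39, 2.84 and 2.67 with simvastatin. NECTIN2 had 4.94, 4.92 and 5.01 with simvastatin plus mevalonate, against 4.89, 5.14 and 4.94 with simvastatin.

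In the remaining comparison, simvastatin plus mevalonate against DMSO, 0 of the 10 genes changed in limma, against 0.0739% of all genes, 0.0336% upward and 0.0403% downward. At an unadjusted p under 0.05 in limma there were 2 of the 10, beside 1635 of all 14884 genes. The groups did not overlap for 2 of the 10, against 16.5% of all genes. These were NCR3LG1, with 6.69, 6.72 and 6.72 with simvastatin plus mevalonate, against 6.53, 6.62 and 6.63 with DMSO (log2 change 0.12, interval 0.01 to 0.22, adjusted p = 0.405), and MICA (0.17, interval 0.02 to 0.33, adjusted p = 0.405). ULBP1 had 4.83, 5.43 and 4.70 with simvastatin plus mevalonate, against 4.97, 4.15 and 4.33 with DMSO. Those groups overlapped, and the log2 change of 0.50 had an interval of -0.04 to 1.04 (adjusted p = 0.484) and spanned 0. PVR differed by 0.07 (interval -0.09 to 0.23).

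**Figure D3:**
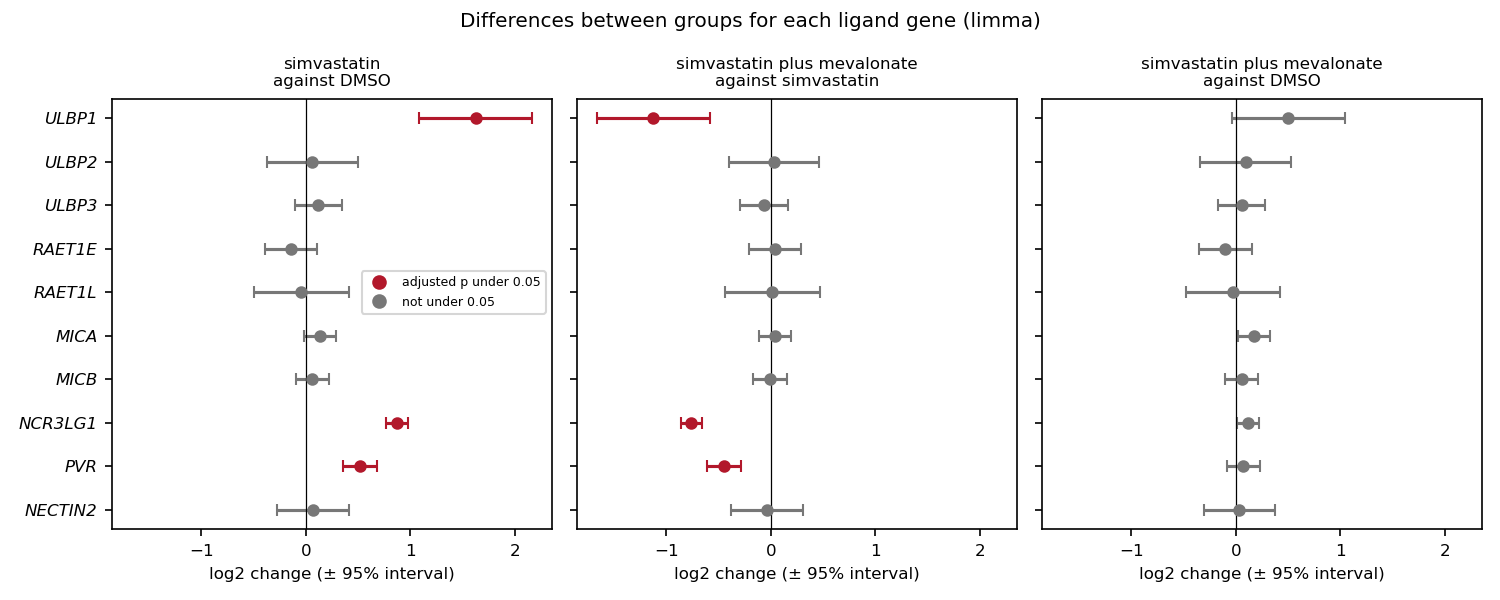
Log2 change of each ligand gene in the 3 comparisons, with limma's 95% interval; red points have an adjusted p under 0.05. ULBP1, NCR3LG1 and PVR are positive for simvastatin against DMSO (1.62, 0.87 and 0.52), negative for simvastatin plus mevalonate against simvastatin (-1.12, -0.76 and -0.45), and not past the threshold for simvastatin plus mevalonate against DMSO.

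The genes whose values ran most like the 3 changed ligand genes over the 9 arrays were sought among 9521 genes with a mean above the median of all deposited values, after leaving out the ligand genes and uncharacterised, long intergenic and small RNA symbols. For NCR3LG1 they were MVD, an enzyme of the mevalonate pathway (Pearson r = 0.994), PCNX2 (0.994) and LONRF2 (0.992). MVD had a log2 change of 0.89 for simvastatin against DMSO and -0.76 for simvastatin plus mevalonate against simvastatin, beside 0.87 and -0.76 for NCR3LG1. For PVR they were the antisense RNA ADAMTS9-AS2 (0.995), CFAP97 (0.982) and TMEM87B (0.979), and for ULBP1 TRIM66 (0.975), CCNG1, which encodes cyclin G1 (0.972), and MAP3K20, a stress-activated kinase gene (0.969). TRIM66 had a log2 change of 0.66 for simvastatin against DMSO and -0.43 for simvastatin plus mevalonate against simvastatin. With the full set of arrays TMEM87B did not pass in limma for simvastatin against DMSO (0.13, adjusted p = 0.0628). Nor did it for simvastatin plus mevalonate against simvastatin (-0.13, adjusted p = 0.0688). CCNG1 (0.24 for simvastatin against DMSO) was past the threshold with the full set of arrays, and its call was lost without simvastatin replicate 2 (adjusted p = 0.0856) or 3 (0.0695) and without DMSO replicate 2 (0.0929) or 3 (0.0936). It was also lost with just the simvastatin and DMSO arrays (adjusted p = 0.0645) and with the replicate number as a block (0.0654). For simvastatin plus mevalonate against simvastatin CCNG1 did not pass in limma (-0.16, adjusted p = 0.133). The 3 ligand genes correlated with each other at 0.890 (ULBP1 and NCR3LG1), 0.876 (ULBP1 and PVR) and 0.958 (NCR3LG1 and PVR). These are descriptions over 9 arrays in 3 treatment groups, and genes that differ between the groups correlate through them.

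**Figure D4:**
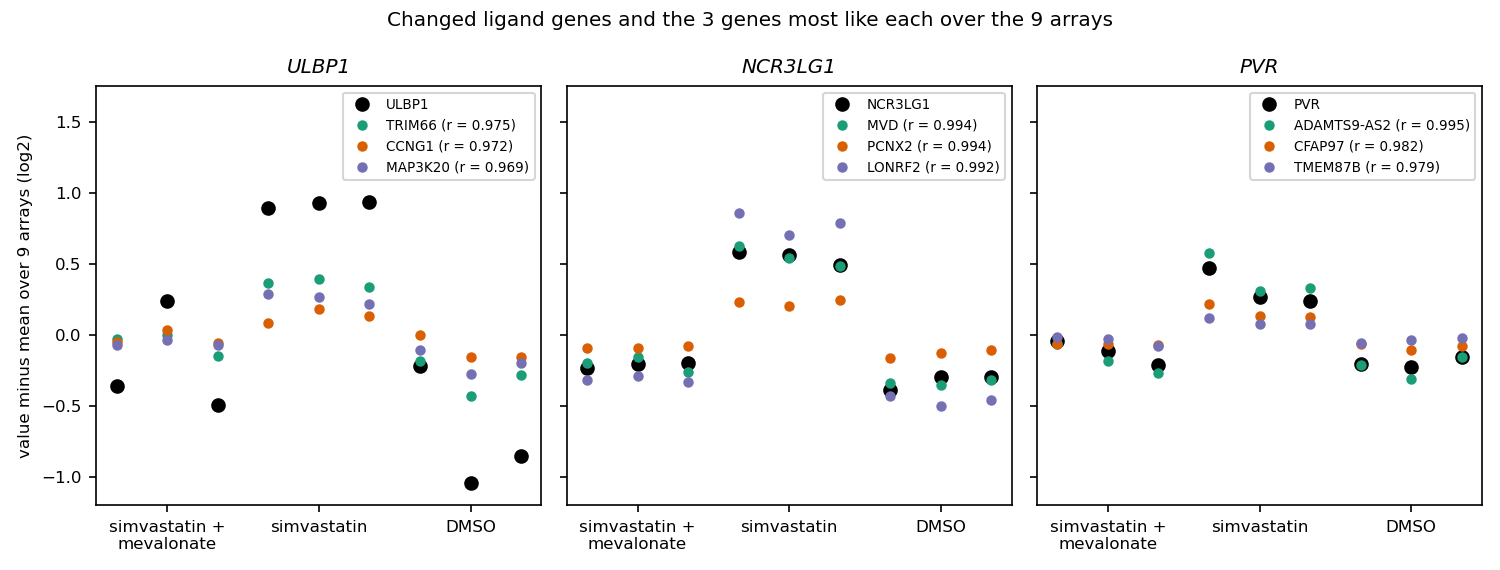
Values of ULBP1, NCR3LG1 and PVR and of the 3 genes most like each, minus each gene's mean over the 9 arrays, on the log2 scale; within a group the arrays are replicates 1 to 3. Each gene is highest on the simvastatin arrays, and MVD lies closest to NCR3LG1 (r = 0.994).

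Genes of related roles moved in both directions, as did all genes, of which 5.98% rose and 7.38% fell with simvastatin against DMSO. The counts in the lists below are to be read beside these shares, and no list was tested as a set. Among 14 other measured ligands of NK cell receptors 1 rose and 2 fell with simvastatin against DMSO, with a median log2 change of -0.04 beside 0.01 for all genes. NID1, a basement membrane protein reported to bind the receptor NKp44, rose by 0.60 ± 0.06 (SE, adjusted p = 0.000516). CADM1, an adhesion protein bound by CRTAM on activated lymphocytes, fell by 0.36 on the log2 scale, and NECTIN3, another nectin, fell by 0.29. PDGFD, a further ligand of NKp44, had a log2 change of -0.29 (adjusted p = 0.134). With mevalonate NID1 (-0.55) fell, and NECTIN3 (0.24) and CADM1 (0.25) rose against simvastatin. CADM1 missed the threshold when its probesets were averaged (adjusted p = 0.0520).

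Of 8 measured genes of MHC class I presentation 0 changed with simvastatin against DMSO in limma. At an unadjusted p under 0.05 there were 0, beside 3805 of all 14884 genes. B2M, the light chain of MHC class I, had 8.75, 8.75 and 8.78 with simvastatin, against 8.73, 8.79 and 8.80 with DMSO. IRF1 (0.14), TAPBP (-0.05), TAPBPL (-0.05) and the chaperone CANX (0.04) had the largest differences of this list. The HLA heavy chain genes are not analysed here. Of 10 measured checkpoint ligands 2 fell and 0 rose. FGL1, a ligand of the lymphocyte receptor LAG3, fell by 1.57 and CD200, which restrains myeloid and NK cells, by 0.72 on the log2 scale, and both rose with mevalonate against simvastatin (1.45 and 0.61). The FGL1 means, 4.74 with simvastatin, 6.19 with simvastatin plus mevalonate and 6.31 with DMSO, all lay inside the range of the genes of other organs. The size of the FGL1 change is therefore poorly determined. CD200 had 7.94, 7.86 and 7.71 with simvastatin, against 8.45, 8.66 and 8.55 with DMSO. VTCN1 (0.26) was past the threshold without DMSO replicate 3 (adjusted p = 0.0175) or with the replicate number as a block (0.0375) and not with the full set of arrays (0.0816), and PDCD1LG2, which encodes PD-L2, differed by 0.09 (adjusted p = 0.766).

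Among 9 adhesion ligands of lymphocyte integrins 1 rose and 1 fell with simvastatin. ICAM2 rose by 0.45 ± 0.07 (SE, adjusted p = 0.00300) and fell by 0.43 with mevalonate, and JAM2 fell by 0.38 on the log2 scale, a call lost with just the simvastatin and DMSO arrays in the fit (adjusted p = 0.0600) and with the replicate number as a block (0.0504). ICAM3 (0.18) and MADCAM1 (-0.11) did not pass with the full set, MADCAM1 doing so without simvastatin replicate 3 (adjusted p = 0.0421). Of 4 measured genes of death receptor signalling 1 passed, BID (-0.20), by a call lost in 11 of 17 alternatives, 8 of them a single array left out (adjusted p up to 0.128, without DMSO replicate 1). FADD (0.27), XIAP (0.16) and CFLAR (-0.03) were not past the threshold. The list had 14 genes, and its death receptor genes, such as FAS, TNFRSF10A and TNFRSF10B, and CASP8 are not analysed here.

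Soluble forms of MICA, MICB and the ULBP proteins are cut from the cell by metalloproteinases, which TIMP proteins inhibit. In a list of 12 measured genes of this release and of the lipid anchor 3 rose and 1 fell with simvastatin. TIMP3, an inhibitor of ADAM17, had 7.37, 7.52 and 7.41 with simvastatin, against 6.70, 6.63 and 6.82 with DMSO (0.72 ± 0.07 SE, adjusted p = 0.000267), a call lost when its probesets were averaged (0.20, adjusted p = 0.222). PGAP1, which remodels lipid anchors, fell by 0.34 on the log2 scale. TIMP1 (0.38) lost its call without simvastatin replicate 3 or DMSO replicate 3 (adjusted p = 0.0583 in both) and with just the simvastatin and DMSO arrays (0.0517), and ADAM15 (0.24) without 7 of the 9 arrays (adjusted p up to 0.106, without DMSO replicate 1), with just the simvastatin and DMSO arrays (0.0936) and with the replicate number as a block (0.0847), so that 1 member rose without simvastatin replicate 3 or DMSO replicate 3. The sheddases ADAM10 and ADAM17 had log2 changes of -0.09 (adjusted p = 0.354) and 0.14 (0.0671).

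Among 25 measured genes reported to regulate these ligands 5 rose and 3 fell, with a median log2 change of -0.02. Of all genes 5.98% rose and 7.38% fell. XBP1, which acts in the unfolded protein response, rose by 0.85 ± 0.06 (SE), JUN, a subunit of AP-1, by 0.66 and ATF3, a stress-induced factor, by 0.54, and EGFR, a growth factor receptor, fell by 0.40 on the log2 scale. The others past the threshold were HSF1 (0.26) and RELA (0.23), which rose, and CHEK2 (-0.23) and HDAC1 (-0.22), which fell. With mevalonate XBP1 (-0.75), JUN (-0.90) and ATF3 (-0.56) fell and EGFR (0.31) rose. ATF4 itself had 10.19, 10.17 and 10.27 with simvastatin, against 10.10, 10.00 and 10.08 with DMSO (0.15, adjusted p = 0.0948), and ATF4 is known to be controlled largely at translation. Just 1 member of this list fell without simvastatin replicate 1 or 3, simvastatin plus mevalonate replicate 3 or DMSO replicate 1 or 3. Of 13 microRNA genes reported to target the ligands 0 changed with simvastatin against DMSO in limma. At an unadjusted p under 0.05 there were 2, beside 3805 of all 14884 genes. MIR889 had the largest difference (0.38, adjusted p = 0.144), followed by MIR34A (0.30), MIR449A (0.30) and MIR373 (0.23), each a probeset at the gene and not a mature arm.

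With simvastatin plus mevalonate against simvastatin, 2 other ligands of NK cell receptors rose and 1 fell, 2 checkpoint ligands rose and 0 fell, and 1 adhesion ligand, ICAM2, fell. Of all genes 5.31% rose and 5.72% fell in this comparison. In the release list 1 gene rose and 3 fell, which were TIMP3 (-0.77), TIMP2 (-0.24) and the sheddase ADAM17 (-0.19). TIMP3 missed the threshold when its probesets were averaged (-0.31, adjusted p = 0.0780). The count of 3 was 1 without simvastatin plus mevalonate replicate 3 and 2 without any other single array. Of the regulators 2 rose and 6 fell, and the second count was 5 or 6 with any array left out. The number that rose was 1 with replicate 2 or 3 of simvastatin plus mevalonate, or replicate 1 or 3 of simvastatin, left out. ERAP1, a peptide-trimming enzyme of class I presentation, fell by 0.21 on the log2 scale (adjusted p = 0.0349), and 0 genes of its list fell without simvastatin replicate 2 or 3, any simvastatin plus mevalonate array, or DMSO replicate 2 or 3. BID (0.20) rose and FADD (-0.30) fell, with either call lost in 10 of 17 alternatives, 7 of them a single array left out. MIR889 (-0.69) fell, and 0 microRNA genes did so without simvastatin plus mevalonate replicate 2 or 3. Its call was also lost with just the arrays of both groups (adjusted p = 0.0598) and with the replicate number as a block (0.0577). With simvastatin plus mevalonate against DMSO 0 genes of these lists changed in limma. In a list 0 to 4 had an unadjusted p under 0.05, beside 1635 of all 14884 genes.

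Of the 16 leukocyte markers 1 rose with simvastatin, CD68 (0.48 ± 0.09 SE, adjusted p = 0.00854), a lysosomal protein that is not restricted to macrophages, and a second did so without DMSO replicate 1, which was CD14 (0.21, adjusted p = 0.0162 without it and 0.124 with it). NKG7 (0.18) and CD8A (0.13) did not pass. Of the 13 neuroblast markers 6 fell and 1 rose, with DBH (-1.21), which makes noradrenaline, the transcription factor gene ISL1 (-0.74) and the granule protein gene CHGA (-0.70) lower and INSM1 (0.61) higher. CHGB (-0.41), TH (-0.25) and GATA3 (-0.21) were the others lower. Of all genes 7.38% fell and 5.98% rose. With simvastatin plus mevalonate against simvastatin 5 of the 13 rose, DBH (1.15) and CHGA (0.62) among them, and 2 fell, INSM1 (-0.71) and L1CAM (-0.27). The second count was 1 without simvastatin replicate 1 or simvastatin plus mevalonate replicate 1 or 3. With simvastatin plus mevalonate against DMSO 0 of the 13 rose and 0 fell in limma. ISL1 (-0.20, adjusted p = 0.141) passed in that comparison with trended and robust moderation (adjusted p = 0.0106). The summed log2 values of the 13 were 126.7 to 127.7 with simvastatin plus mevalonate, 125.4 to 125.7 with simvastatin and 128.2 to 128.4 with DMSO, and no 2 groups overlapped. The part of either marker list in the ligand changes was not tested. In bulk RNA a change in the share of cells that express a ligand and a change of RNA per cell cannot be told apart.

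**Figure D5:**
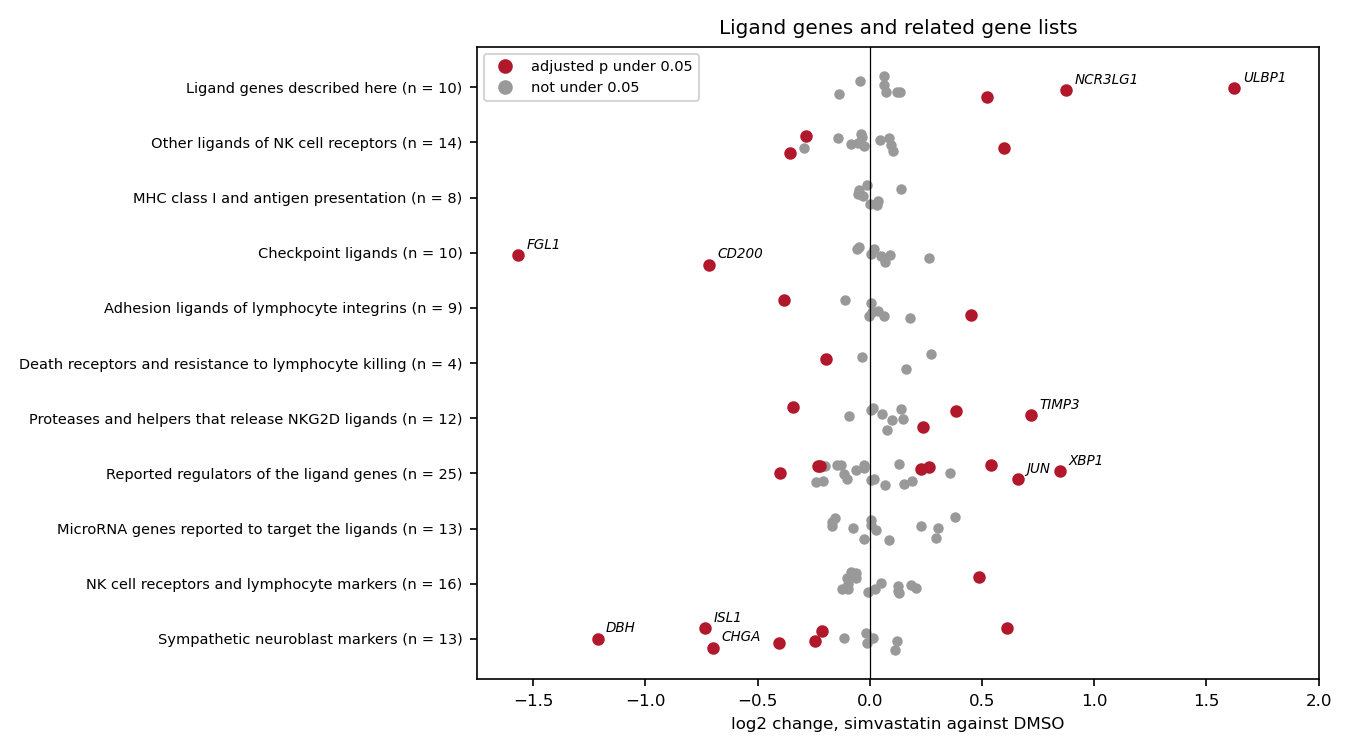
Log2 change of simvastatin against DMSO for the 10 ligand genes and for the related lists; each point is 1 measured gene, and red points have an adjusted p under 0.05. ULBP1 (1.62) and NCR3LG1 (0.87) lie at the upper end, and FGL1 (-1.57), DBH (-1.21) and CD200 (-0.72) at the lower end.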

How the data were processed

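Per the labels' protocols, biotin-labelled RNA was hybridised to one-channel Affymetrix arrays. The deposited values are log2 expression values made by the authors. GCRMA and HOMER appear in the submitters' processing notes with no version or role, and the sources used here do not give the probesets' build. Values ran from 0.921 to 14.0, with array medians from 5.17 to 5.21. GCRMA, a background correction and summary method, pulls dim probesets together, and after normalization between arrays a shift shared by every gene cannot be seen. Of 53617 probesets 16098 carried 1 symbol, 0 several and 37519 none. The brightest probeset stood for each of 14884 genes. Group means of the 9 arrays were fitted in R 4.3.3 with limma 3.58.1 (6 residual degrees of freedom), with Benjamini-Hochberg adjustment over the 14884 genes in each comparison and a threshold of 0.05. "Rose", "fell" and "changed" mean past that threshold. The ligand genes and the 12 gene lists (157 of 242 entries measured) were chosen with earlier results of these data known. Genes are named by a rule: the 10 ligand genes, up to 4 genes per list with the largest change for simvastatin against DMSO, and 3 genes most like each changed ligand gene. ADAM10, ADAM17, TIMP2, ERAP1, ATF4, B2M, HSF1, RELA, CHEK2, HDAC1, CHGB, TH, GATA3, L1CAM and the neighbouring genes were named outside it, after their values were seen. Promoter windows come from RefSeq (GRCh38.p14), where 10 of 10 ligand genes matched. The fit was tested on simulated data. Precision is limited by the number of arrays.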

Additional observations from a re-analysis of the deposited data

How the results depend on the processing

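Each result was recomputed with quantile normalization, median centring, the mean over probesets, all named probesets, dim genes left out, trended and robust moderation, just the groups compared, a replicate block, and each array left out in turn. With simvastatin against DMSO the 3 ligand genes that rose did so under each alternative, and with simvastatin plus mevalonate against simvastatin NCR3LG1 and PVR fell under each, while ULBP1 did not without any of 4 single arrays. With simvastatin plus mevalonate against DMSO no ligand gene passed under any alternative, and the count of all genes, 11 in limma, was 105 with dim genes left out (fewer genes tested), 223 with trended and robust moderation, 0 with just the groups compared (1671 at an unadjusted p under 0.05) and 0 with the replicate block (1505), and 0 to 12 with 1 array left out. Same-numbered samples did not deviate together (correlations from -0.08 to 0.05, 0 of 9 pairs above 0.1, own number best in 1 of 9), so the numbers were not taken as pairs; under the replicate block 1576 genes changed with simvastatin against DMSO, in place of 1988, and 1230 with simvastatin plus mevalonate against simvastatin, in place of 1642. The block ended no call of a ligand gene. Over the genes named by the rule and the neighbouring genes 3120 of the recomputed values kept their call, 80 lost it, 16 gained it and 0 reversed; unless stated, the cause was not tested. RAET1E, RAET1L and NECTIN2 are left out by the filter on dim genes. ULBP1 stays in narrowly, with a mean of 5.193 over the 9 arrays against 5.187, the median of all deposited values. Its group means were 6.11 with simvastatin, 4.99 with simvastatin plus mevalonate and 4.48 with DMSO. It is thus kept through the simvastatin group, and this setting gives no separate support for its calls.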

Other observations

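The measured neighbours of the 3 changed ligand genes in RefSeq gene order were looked up after the values were seen. NUCB2, which encodes the calcium-binding protein nucleobindin-2 and stands before NCR3LG1 on chromosome 11, had 5.07, 5.08 and 4.99 with simvastatin, against 4.81, 4.32 and 4.62 with DMSO (log2 change 0.46 ± 0.11 SE, adjusted p = 0.0243, limma), a call lost without simvastatin replicate 1 (0.0672), 2 (0.0729) or 3 (0.0516) or DMSO replicate 3 (0.0583), and with just the simvastatin and DMSO arrays (0.0782). NUCB2 fell with simvastatin plus mevalonate against simvastatin (-0.43 ± 0.11 SE, adjusted p = 0.0384, limma), a call lost in 8 of 16 alternatives. MYOD1, the measured gene after NCR3LG1, had a log2 change of 0.06 with simvastatin against DMSO (adjusted p = 0.739). CEACAM19, which stands after PVR on chromosome 19, had 6.28, 6.22 and 6.31 with simvastatin, against 5.97, 6.01 and 5.92 with DMSO (0.30 ± 0.04 SE, adjusted p = 0.00258). It fell with mevalonate, at 5.97, 5.91 and 5.97 with simvastatin plus mevalonate, against 6.28, 6.22 and 6.31 with simvastatin (-0.32 ± 0.04 SE, adjusted p = 0.00249). CEACAM20, the measured gene before PVR, had a log2 change of 0.02 with simvastatin against DMSO (adjusted p = 0.888), and RAET1K, a pseudogene after ULBP1, of -0.14 (adjusted p = 0.738).

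Some deposited values repeat exactly between arrays. MICA had 8 distinct values on the 9 arrays and MICB and RAET1L had 7 each, while the other 7 ligand genes, the 3 changed ones included, had 9. Such repeats occurred in 57.4% of all genes.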
